A study of Mus musculus with 13 samples.

Results

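The 9 genes described here make, pack or process pulmonary surfactant. They were taken by symbol from the table of gene counts, which lists 54513 symbols: Sftpa1, Sftpb, Sftpc and Sftpd, which encode the surfactant proteins, and Abca3, Lamp3, Napsa, Slc34a2 and Lpcat1. The rule uses names alone and no measured value, though the genes were chosen with earlier results of these data known. All 9 were in the table, and all 9 were among the 20468 genes abundant enough to be tested.

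Surfactant is the film of phospholipid and protein that lowers surface tension in the alveoli and keeps them open as the lung deflates. Alveolar type 2 cells make it, store it in lysosome-related organelles called lamellar bodies and secrete it. The same cells act as progenitors of the thin type 1 cells after injury, and they lose surfactant transcripts as they change state. The transcription factor NKX2-1 is a main activator of the surfactant protein genes.

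RNA came from lungs of male C57Bl/6 mice aged 7 to 8 weeks, collected 21 days after they received either bleomycin or saline. The drug bleomycin breaks DNA and is used to cause lung fibrosis in mice; its dose and route were not among the labels used here. The tissue was formalin-fixed and paraffin-embedded, and total RNA was sequenced from a coronal section 10 µm thick. The groups were 5 saline libraries of batch 1 (replicates 1 to 5), 4 bleomycin libraries of batch 1 (replicates 5 to 8) and 4 bleomycin libraries of batch 2 (replicates 1 to 4). Batch is a label of the submitters, who do not say what it stands for. Batch 2 holds no saline library, so against saline the treatment and the batch of the batch 2 libraries cannot be told apart. Nothing beyond the replicate labels says that the libraries came from separate animals, and a p-value here speaks only of the spread among these libraries.

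Bleomycin replicate 8 has conflicting labels: its title says control, whereas its treatment label and its library name say bleomycin. It was kept as bleomycin, and the number of surfactant genes called in batch 1 is also given without it. Orders of libraries, correlations and summed levels are given with it only. Total counts ran from 6337147 to 28885129 per library, and the batch 2 libraries, with at most 12982422, were all shallower than the batch 1 bleomycin libraries, with at least 21727502. Saline libraries had 9527580 to 26043735. The 18S ribosomal RNA gene Rn18s-rs5 took 5.30% to 13.5% of the counts in saline and 13.6% to 17.7% in batch 2 bleomycin. In batch 1 bleomycin it took 3.91% in replicate 6, 7.13% in replicate 7 and 21.2% in replicate 8, the highest share of all. The part of these differences in the surfactant values was not tested. As a reference for fibrosis, the collagen gene Col1a1 was at 215 to 324 CPM in the saline group, at 928 to 3982 CPM in the bleomycin libraries of batch 1 and at 1530 to 4061 CPM in those of batch 2. CPM are counts relative to the library total, put on a common scale with edgeR's TMM factors. Bleomycin replicate 8, with 3982 CPM, had the highest Col1a1 level of batch 1. Its TMM factor was 0.853, beside 1.10 to 1.12 in the other bleomycin libraries of batch 1. Its level of the fibronectin gene Fn1 was 8202 CPM, beside 369 to 450 CPM in saline.

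Surfactant genes were among the abundant transcripts of these lungs. Together the 9 genes made up 0.691% to 0.926% of all counts in saline, 0.261% to 0.657% in batch 1 bleomycin and 0.371% to 0.860% in batch 2 bleomycin. Per kilobase of exon in the GENCODE M21 annotation, the saline level of Sftpc was 3386 ± 568 CPM per kb (SD, n = 5). Sftpb followed at 554 ± 60.0 and Sftpa1 at 461 ± 42.8 CPM per kb; the libraries of Sftpb and Sftpa1 overlapped, and those of Sftpc lay above both. Slc34a2 was at 191 ± 20.4, Sftpd at 82.1 ± 13.4 and Lamp3 at 77.4 ± 7.68 CPM per kb, of which the last pair differed by less than their spread. Lpcat1 at 43.3 ± 6.63, Abca3 at 31.1 ± 2.42 and Napsa at 25.3 ± 2.03 CPM per kb had the lowest levels, and of these Lpcat1 and Abca3 overlapped.

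In batch 1, the bleomycin lungs had lower levels of 4 of the 9 genes: Sftpc at 40.3% of the saline mean, Sftpa1 at 49.0%, Slc34a2 at 50.9% and Sftpb at 64.2%. None of the 9 was called higher, and the means of Sftpd (108% of saline) and Napsa (104%) lay slightly above saline. Here a gene is called when its adjusted p in edgeR's quasi-likelihood test is under 0.05, with Benjamini-Hochberg adjustment over the 20468 genes. By that rule 13.4% of all tested genes were called lower and 17.5% higher in this comparison. The median log2 change of the 9 genes was -0.64, beside 0.03 over all tested genes. In every batch 1 bleomycin library the same 4 genes were below every saline library, a pattern that held for 11.3% of all tested genes. Without bleomycin replicate 8, 3 of the 4 were called, and with it counted as saline, as its title has it, 0 were. In that last setting the saline group holds a library with 3982 CPM of Col1a1, beside at most 324 CPM in its other libraries. With no filter on low counts 2 were called (Sftpb and Sftpc), and with the bleomycin batches pooled 1 was (Slc34a2). In these bulk sections, fewer type 2 cells and less surfactant RNA per cell cannot be told apart.

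In the batch 2 bleomycin lungs no surfactant gene was called lower against saline, where 13.2% of all tested genes were. Sftpd and Napsa were called higher there, as were 15.7% of all tested genes. Set directly against batch 1 bleomycin, all 9 genes had a higher mean in batch 2, by 0.39 to 1.05 on the log2 scale. None of these 9 differences passed the adjusted threshold in edgeR, which 0.547% of all tested genes passed as higher and 1.13% as lower. At an unadjusted p under 0.05, 5 of the 9 were higher (Sftpb, Sftpc, Sftpd, Abca3 and Napsa), as were 5.36% of all genes. Without batch 2 replicate 1, the adjusted threshold was passed by 4 (Sftpb, Sftpc, Sftpd and Abca3), without batch 1 replicate 5 by 1 (Sftpc), and with DESeq2 by 2 (Sftpb and Sftpd). The shares above belong to the main fit, with 343 genes called. With 1 library left out, 148 to 1093 genes were called. The shares in these settings are not given here, so nothing particular to the surfactant genes is read from these counts. The median log2 difference was 0.54 for the 9 genes and -0.03 over all tested genes.

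**Figure D1:**
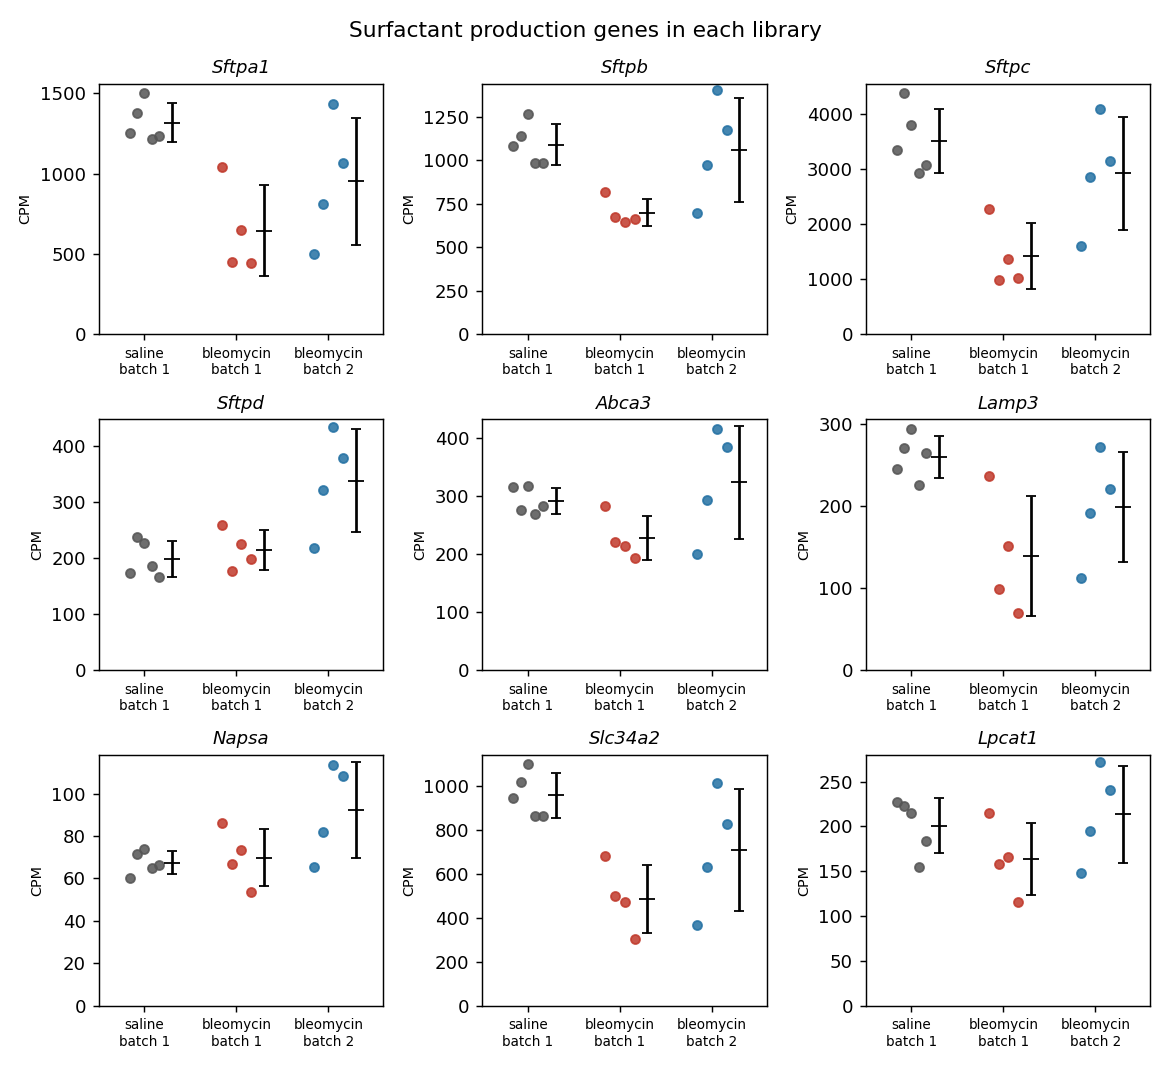
Level of each surfactant gene in every library, in CPM on a linear axis that starts at 0. Points are libraries in replicate order within the group, and bars are the mean ± SD of 5 saline, 4 batch 1 bleomycin and 4 batch 2 bleomycin libraries. The batch 1 bleomycin points of Sftpa1, Sftpb, Sftpc and Slc34a2 all lie below the saline points, and the batch 2 points span both.

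Among the genes that fell in batch 1, Sftpa1, Sftpb and Slc34a2 have a promoter in the RefSeq table used here. The 250 bases before each start are printed to show which of these promoters carry the core NKX2-1 recognition letters, CTCAAG, in capitals.
Sftpb promoter, GRCm38.p6 chr6:72304360-72304609, plus strand: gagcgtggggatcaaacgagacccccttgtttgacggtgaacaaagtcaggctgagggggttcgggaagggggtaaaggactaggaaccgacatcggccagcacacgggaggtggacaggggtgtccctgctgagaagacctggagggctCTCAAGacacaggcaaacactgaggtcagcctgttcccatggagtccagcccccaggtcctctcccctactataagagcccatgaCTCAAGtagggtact
Sftpa1 promoter, GRCm38.p6 chr14:41131538-41131787, plus strand: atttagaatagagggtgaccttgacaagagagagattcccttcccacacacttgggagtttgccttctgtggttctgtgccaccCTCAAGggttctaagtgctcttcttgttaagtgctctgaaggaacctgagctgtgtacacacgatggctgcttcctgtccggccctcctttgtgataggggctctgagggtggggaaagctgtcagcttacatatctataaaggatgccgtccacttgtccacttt
Slc34a2 promoter, GRCm38.p6 chr5:53049103-53049352, plus strand: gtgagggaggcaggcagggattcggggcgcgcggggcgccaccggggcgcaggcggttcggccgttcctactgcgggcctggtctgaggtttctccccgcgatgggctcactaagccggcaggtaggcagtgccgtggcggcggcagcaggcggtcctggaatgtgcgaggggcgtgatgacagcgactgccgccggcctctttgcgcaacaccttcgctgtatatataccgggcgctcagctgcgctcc
The Sftpb window held the letters 2 times, at 100 and 15 bases before the start, and the Sftpa1 window held them once, at 166 bases before it. Sftpa1 also had the letters TATAAA at 30 bases before the start. In the Slc34a2 window neither motif was found, and of its letters 69.6% were G or C, beside 58.4% in Sftpb and a median of 52.4% over all windows. Both strands were searched, and CTCAAG occurred in 13.3% and TATAAA in 12.4% of the 32851 RefSeq windows of this length. The windows of Abca3, Lamp3 and Lpcat1 held neither motif. For Sftpc, Sftpd and Napsa no promoter was available, so they were not searched. A match describes letters only, not a bound site.

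Surfactant proteins B and C are the small hydrophobic proteins that spread phospholipid at the air surface, and SP-C is made almost only by type 2 cells. The levels of Sftpc in saline replicates 1 to 5 were 3340, 4366, 3801, 2926 and 3072 CPM. Batch 1 bleomycin replicates 5 to 8 gave 2269, 979, 1369 and 1023 CPM, so that each was below the lowest saline library and replicate 5 was the nearest to it. Batch 2 replicates 1 to 4 gave 1601, 2858, 4082 and 3135 CPM, with replicate 1 among the batch 1 values and the other 3 close to or within the saline range. The log2 change in batch 1 was -1.31 (SE 0.29, edgeR adjusted p 0.00512). In batch 2 against saline it was -0.26, with a 95% interval from -0.88 to 0.36 (adjusted p 0.535). Between the batches of bleomycin it was 1.05 (SE 0.30, adjusted p 0.116).

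Sftpb encodes the surfactant protein without which newborn lungs cannot inflate. Its saline levels were 1080, 1137, 1264, 983 and 983 CPM. In batch 1 bleomycin they were 816, 674, 644 and 663 CPM, a narrow range below all of the saline libraries. In batch 2 they were 697, 972, 1401 and 1174 CPM, from within the batch 1 range to above the highest saline library. Sftpb fell by 0.64 on the log2 scale in batch 1 (SE 0.16, edgeR adjusted p 0.00637). The batch 2 change against saline was -0.04, with an interval from -0.37 to 0.29 (adjusted p 0.883), and the difference between bleomycin batches was 0.60 (SE 0.17, adjusted p 0.0843).

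SP-A and SP-D are collectins, soluble lectins that bind microbes and regulate surfactant turnover, and their genes lie in 1 cluster on chromosome 14. Sftpa1 was at 1253, 1378, 1504, 1215 and 1235 CPM in saline. Its batch 1 bleomycin levels of 1043, 447, 649 and 441 CPM were all lower, with replicate 5 far nearer to saline than the other 3. Batch 2 gave 498, 810, 1436 and 1064 CPM, of which replicate 3 alone fell inside the saline range. The batch 1 change was -1.03 (SE 0.31, edgeR adjusted p 0.0256), and without bleomycin replicate 8 it was -0.92 and no longer called (adjusted p 0.072). It was not called without replicate 6 (0.0749) or replicate 7 (0.0573) either. In batch 2 the change from saline was -0.47 (interval from -1.14 to 0.20, adjusted p 0.285).

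Sftpd, the other collectin gene, was not called in batch 1. Its saline levels were 174, 238, 227, 186 and 167 CPM, and its batch 1 bleomycin levels of 259, 177, 224 and 198 CPM overlapped them (log2 change 0.11, interval from -0.27 to 0.49, edgeR adjusted p 0.672). In batch 2 it was at 219, 322, 434 and 379 CPM, with 3 of 4 libraries above every saline library and replicate 1 within the saline range. Against saline, Sftpd rose by 0.77 in batch 2 (SE 0.18, adjusted p 0.0048). The difference between the bleomycin batches was 0.66 (SE 0.19, adjusted p 0.0995). The mannose-binding lectin gene Mbl1, which lies between Sftpa1 and Sftpd, was at a low level and fell in batch 1, from 1.81 to 0.47 CPM (log2 change -1.92, adjusted p 0.0443).

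Abca3 and Lamp3 encode membrane proteins of the lamellar body: ABCA3 pumps phospholipid into it, and LAMP3 (DC-LAMP) sits in its limiting membrane. Lamp3 was at 245, 271, 294, 226 and 264 CPM in saline and at 237, 98.7, 151 and 69.9 CPM in batch 1 bleomycin. Replicate 5 lay inside the saline range and the other 3 lay well below it, and the change of -0.90 (SE 0.33) had an edgeR adjusted p of 0.0618 (0.0256 with DESeq2 and 0.0264 with limma-voom). Leaving out replicate 5 gave an adjusted p of 0.00712, whereas leaving out replicate 8 gave 0.112. Batch 2 gave 112, 191, 271 and 220 CPM for Lamp3 (change from saline -0.39, interval from -1.11 to 0.34, adjusted p 0.422). LAMP3 is also made by mature dendritic cells, and the summed level of 10 dendritic cell markers was 159 to 183 CPM in saline, 406 to 686 CPM with bleomycin in batch 1 and 499 to 625 CPM in batch 2 bleomycin. Most of the sum was H2-Ab1, at 106, 360 and 428 CPM on average in the same order. In batch 1, 8 of the 10 markers were called higher, whereas Zbtb46, at 40.0, 39.6 and 38.0 CPM in the 3 groups, was not called. The part of dendritic cells in the Lamp3 values was not tested.

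Abca3 was not called in either batch. Its levels were 315, 275, 317, 269 and 282 CPM in saline, 282, 221, 214 and 193 CPM in batch 1 bleomycin and 200, 293, 416 and 384 CPM in batch 2. The batch 1 change of -0.36 (interval from -0.73 to 0.01) did not pass in edgeR (adjusted p 0.129), although 3 of the 4 libraries were below all saline libraries. With the 9 batch 1 libraries fitted alone it was -0.39 and called (adjusted p 0.0241), and it was also called without batch 2 replicate 1 (0.0379). In batch 2, Abca3 was 0.15 above saline (adjusted p 0.56), and 2 of 4 libraries exceeded every saline library.

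Napsin A, the product of Napsa, is an aspartic protease that helps to cut the precursors of SP-B and SP-C. Napsa was not called in batch 1: it was at 60.3, 71.6, 73.8, 65.1 and 66.3 CPM in saline beside 86.1, 66.6, 73.2 and 53.4 CPM in bleomycin (log2 change 0.05, interval from -0.28 to 0.38, edgeR adjusted p 0.831). Its batch 2 levels were 65.3, 82.1, 113 and 108 CPM. The rise of 0.46 over saline in batch 2 was called (SE 0.16, adjusted p 0.0378), with 3 of 4 libraries above all saline libraries. That call was held in 10 of 23 alternative analyses, with adjusted p from 0.00657 to 0.204, whereas the call of Sftpd was held in all 23.

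Slc34a2 encodes the sodium-phosphate cotransporter that takes up phosphate freed when surfactant phospholipid is broken down. It was at 945, 1018, 1099, 863 and 862 CPM in saline. Batch 1 bleomycin gave 679, 497, 471 and 302 CPM, all below saline, and the log2 change was -0.97 (SE 0.27, edgeR adjusted p 0.0173). Without replicate 8, which was the lowest, it was -0.83 (adjusted p 0.043). Batch 2 ranged from 367 CPM in replicate 1 through 630 and 826 CPM to 1011 CPM in replicate 3, and its change from saline was -0.43 (interval from -1.02 to 0.15, adjusted p 0.256).

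Lpcat1 encodes the acyltransferase that remodels phosphatidylcholine into the dipalmitoyl form of surfactant. Its libraries overlapped between all groups: 228, 223, 215, 155 and 184 CPM in saline, 215, 159, 166 and 116 CPM in batch 1 bleomycin and 148, 195, 272 and 240.5 CPM in batch 2. The batch 1 change was -0.30 (interval from -0.71 to 0.12, edgeR adjusted p 0.266) and the batch 2 change was 0.09 (interval from -0.32 to 0.50, adjusted p 0.764).

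**Figure D2:**
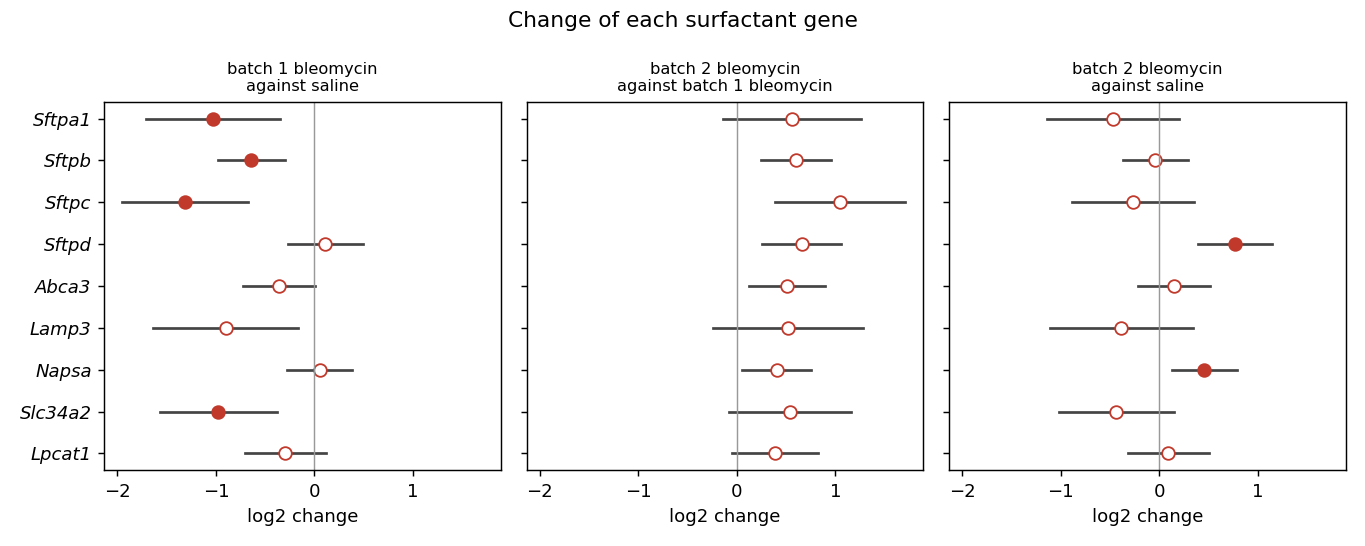
Log2 change of each surfactant gene in the 3 comparisons, as edgeR's estimate with its 95% interval. Filled points are called at an adjusted p under 0.05. In batch 1, 4 genes are called lower, between bleomycin batches all 9 points lie above 0 with none called, and in batch 2 against saline Sftpd and Napsa are called higher.

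Abca3, Napsa and Slc34a2 each overlap an antisense gene in the GENCODE M21 annotation (D330041H03Rik, Gm15396 and Gm17182), and whether counting used strand is not stated in the sources at hand. These antisense genes were at 4.53, 0.915 and 0.627 CPM on average in saline and at 4.26, 0.809 and 0.401 CPM in batch 1 bleomycin, far below the genes they overlap. How far the overlap affected the counts of Abca3, Napsa and Slc34a2 was not tested.

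The balance among the 9 genes was not the same in the bleomycin libraries as in saline. Ratios of counts within a library do not depend on how libraries are scaled. Sftpc took 42.5% to 48.6% of the counts of the 9 genes in saline, 29.5% to 38.6% in batch 1 bleomycin and 41.0% to 45.0% in batch 2 bleomycin. In batch 1, the ratio of Sftpc to another member was below every saline library in all 4 bleomycin libraries for 7 of the 8 other genes, all but Lamp3. The same held for the ratio of Sftpc to 58.3% of all other tested genes, so nothing particular to the surfactant genes is read from the 7 of 8. In batch 2 it was so for 4 of 8, which were also among the 7 (Sftpb, Sftpd, Abca3 and Napsa), and for 9.98% of all other tested genes. These are descriptions without a test.

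The widest shifts were against Sftpd and Napsa. The log2 ratio of Sftpc to Sftpd was 3.97 to 4.27 in saline, 2.37 to 3.13 in batch 1 bleomycin and 2.87 to 3.23 in batch 2 bleomycin. Against Napsa it was 5.49 to 5.93, 3.88 to 4.72 and 4.62 to 5.17 in the same order. So even batch 2 replicate 3, whose Sftpc level lay within the saline range, had less Sftpc for each unit of Sftpd and of Napsa than any saline lung. Against Abca3 the ratio was 3.41 to 3.99 in saline, 2.15 to 3.01 in batch 1 and 3.00 to 3.30 in batch 2. Against Sftpb it was 1.57 to 1.94, 0.54 to 1.48 and 1.20 to 1.56.

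Between the bleomycin batches, the ratios of Sftpc to Sftpa1, Slc34a2 and Lpcat1 did not overlap. The share of all tested genes with such a gap was not counted, so nothing particular to these genes is read from it. Batch 2 libraries had log2 ratios of Sftpc to Sftpa1 of 1.51 to 1.82, beside 1.27 to 1.66 in saline and 1.08 to 1.21 in batch 1 bleomycin. Against Slc34a2 they had 1.92 to 2.18, beside 1.76 to 2.10 in saline and 0.98 to 1.76 in batch 1, where the gap to saline was under the last printed digit. Against Lpcat1 the ratio was 3.44 to 3.91 in batch 2, 3.88 to 4.29 in saline and 2.63 to 3.40 in batch 1. Against Lamp3 the ratio overlapped saline in both batches, at 3.54 to 4.01 in saline, 3.18 to 3.87 in batch 1 and 3.83 to 3.91 in batch 2. In batch 1 that overlap rested on replicate 8 (3.87), the library with conflicting labels. Replicates 5 to 7, at 3.26, 3.31 and 3.18, were below every saline library.

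**Figure D3:**
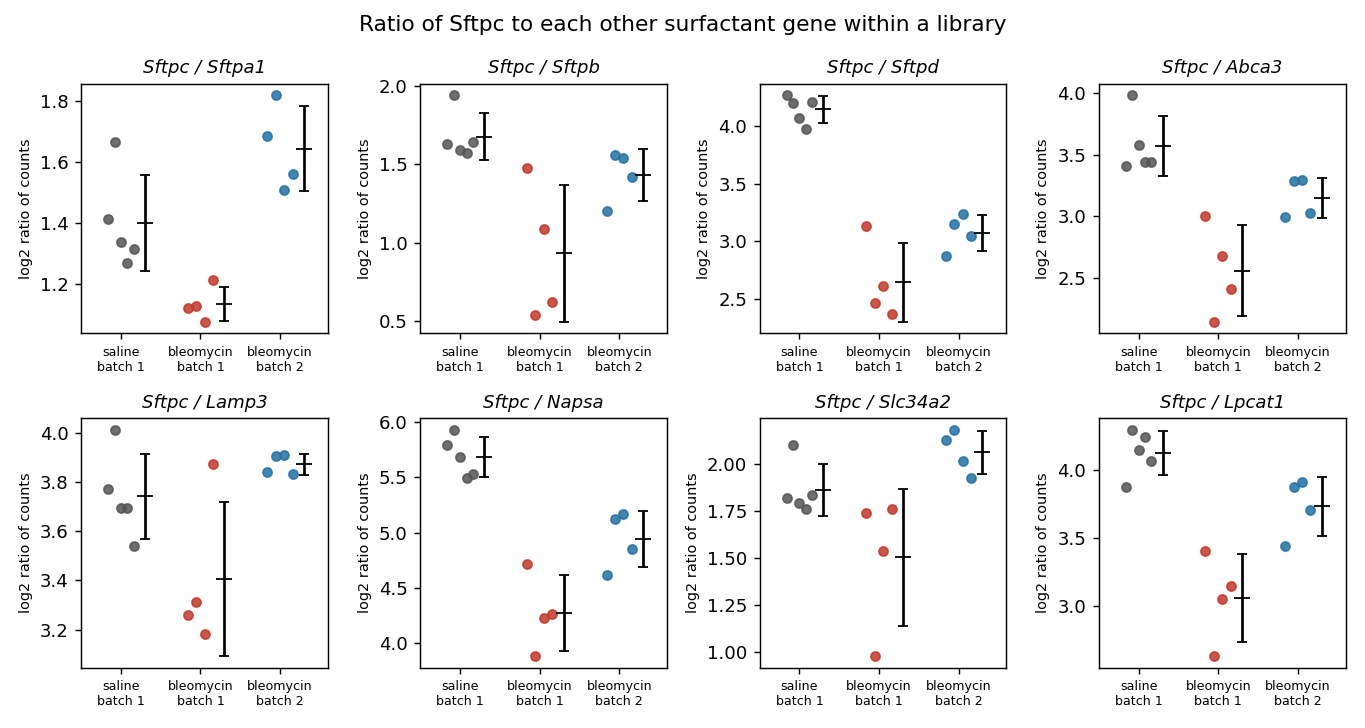
Log2 ratio of Sftpc counts to the counts of each other surfactant gene within a library, by group; axes do not start at 0. Points are libraries and bars the mean ± SD of 5, 4 and 4 libraries. For Sftpd and Napsa both bleomycin batches lie wholly below saline, whereas for Sftpa1 only batch 1 does.

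Within each bleomycin batch the surfactant genes moved together from library to library. In batch 1 all 9 were highest in replicate 5, and the lowest library was replicate 8 for 6 genes, replicate 6 for 2 and replicate 7 for 1. In batch 2 all 9 were highest in replicate 3 and lowest in replicate 1. The share of all tested genes with the same extreme libraries was not counted, so nothing particular to these genes is read from these counts. The mean log2 CPM of the 9 genes was 8.72, 8.04, 8.26 and 7.82 in batch 1 replicates 5 to 8 and 8.11, 8.72, 9.26 and 9.02 in batch 2 replicates 1 to 4, beside 8.69 to 9.02 in saline. Replicates 1 and 3 also had the lowest and the highest total counts of batch 2, and the part of depth in this order was not tested.

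Within a bleomycin batch, the libraries with the most collagen transcript tended to have the least of these genes. Col1a1, the main chain of type I collagen, was at 928, 3147, 2313 and 3982 CPM in batch 1 replicates 5 to 8 and at 4061, 1990, 1530 and 1903 CPM in batch 2 replicates 1 to 4. The order of the 4 libraries by Col1a1 was the exact inverse of their order by the surfactant gene for 9 of 9 genes in batch 2 and for 4 of 9 in batch 1 (Sftpa1, Lamp3, Napsa and Lpcat1). All 9 genes shared the same order in batch 2, so the 9 of 9 stands for 1 ordering of 4 libraries. For a single batch the share of all tested genes was not counted. In both batches at once it held for these 4, and for 0.723% of all tested genes. With fibronectin (Fn1) in place of Col1a1, the order was inverse for 4 genes in batch 1 and for 0 in batch 2, where replicates 2 and 4 changed places (3204 and 3444 CPM of Fn1). Sftpc was not at 1 level for a given Col1a1 level: replicate 7 of batch 1, with 2313 CPM of Col1a1, had 1369 CPM of Sftpc, whereas replicate 2 of batch 2, with 1990 CPM of Col1a1, had 2858 CPM.

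**Figure D4:**
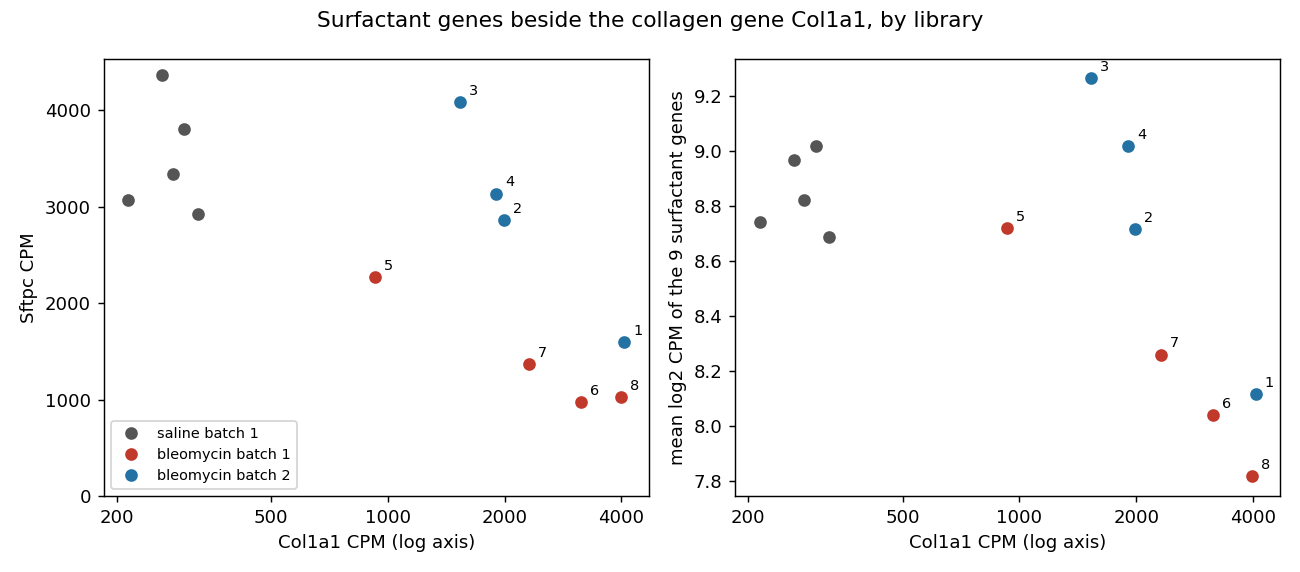
Sftpc level (left, CPM) and mean log2 CPM of the 9 surfactant genes (right) against the Col1a1 level (CPM, log axis) in each library. Numbers beside points are bleomycin replicates. In each bleomycin batch the library with the least Col1a1, replicate 5 or 3, has the highest surfactant level, and batch 2 lies above batch 1 at similar Col1a1.

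Over the 13 libraries a set of 7 genes and a pair could be seen in the correlations. Among Sftpa1, Sftpb, Sftpc, Abca3, Lamp3, Slc34a2 and Lpcat1, the 21 pairwise Pearson correlations of log2 CPM were 0.787 to 0.970. Sftpd and Napsa correlated with each other at 0.910, and with the other 7 at 0.235 to 0.762 over 14 pairs. These points share the library totals, the treatment and the batches, so the values are descriptions.

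Among the 13024 other genes that averaged 5 CPM or more, those whose profile was most like the mean of the 9 were Lgi3 (r 0.954) and Nkx2-1 (r 0.954). Then came Enpep (0.945), Il17re (0.937), Mlc1 (0.927), Hc (0.926), 2610028H24Rik (0.923), Clstn1 (0.921), Mmp15 (0.921) and Clec3b (0.916). Nkx2-1 itself was at 82.3 to 95.8 CPM in saline, 43.1 to 96.7 CPM with bleomycin in batch 1 and 57.3 to 104 CPM in batch 2. Its changes from saline of -0.44 in batch 1 and -0.10 in batch 2 did not pass in edgeR (adjusted p 0.113 and 0.765).

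Among 12 regulators of surfactant genes, 6 were called lower and 1 higher in batch 1, with a median log2 change of -0.37. In batch 2 against saline, 4 were lower and 1 higher. Foxa1 and Foxa2, forkhead factors of the lung epithelium, fell by 1.08 (edgeR adjusted p 0.00287) and 0.52 (0.0192) in batch 1. In batch 2 against saline Foxa1 fell by 0.84 (0.0146), and Foxa2 was not called (0.14, adjusted p 0.554). Etv5, a factor that maintains type 2 cells, fell by 0.71 in batch 1 (0.0439), and Klf5 fell by 0.83 in batch 1 (0.00131) and by 0.93 in batch 2 (0.000704). Srebf2, a regulator of sterol synthesis, fell by 0.30 in batch 1 (0.00831). Stat3, a signalling factor that many cell types express, rose by 0.74 in batch 1 (0.000134). The genes beyond the lists' most abundant members and lowest p-values, such as Foxa1 and Foxa2, were picked after their values were seen.

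Of 14 genes for building and releasing lamellar bodies, 3 were called higher and 3 lower in batch 1, with a median of 0.18. Adgrf5, a receptor on type 2 and endothelial cells that restrains surfactant pools, fell from 1315 to 731 CPM (log2 change -0.85, edgeR adjusted p 0.000178). Ctsh, a lysosomal protease that also takes part in processing SP-B and SP-C, rose from 101 to 212 CPM (1.08, adjusted p 2.17e-05), and macrophages express it too. The most abundant uncalled member, Lyst, a lysosome trafficking protein, was at 174 CPM in saline and 193 CPM in batch 1 bleomycin (0.15, adjusted p 0.252). In batch 2 against saline, 5 of the 14 were higher and 1 was lower.

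Phospholipid and fatty acid synthesis had 6 of 19 genes called lower and 1 higher in batch 1 (median -0.56), and 7 lower and 1 higher in batch 2 against saline. Prdx6, which carries the phospholipase activity used to recycle surfactant lipid, fell from 577 to 294 CPM in batch 1 (-0.97, edgeR adjusted p 0.000556) and was at 304 CPM in batch 2 (-0.92, adjusted p 0.000914). Chpt1, which makes phosphatidylcholine in its last step, fell by 1.14 in batch 1 (adjusted p 0.00678) and by 1.40 in batch 2 (0.0024), a gene picked after its values were seen. The abundant lipid synthesis genes Scd1 (2458, 1545 and 2364 CPM in saline, batch 1 and batch 2) and Fasn (829.3, 416 and 716 CPM) were not called in either batch. Pgs1, of phosphatidylglycerol synthesis, rose by 0.48 in batch 1 (0.00178).

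Surfactant is cleared largely by alveolar macrophages under the growth factor GM-CSF, encoded by Csf2. Of 10 clearance genes, 5 were called higher and 1 lower in batch 1 (median 0.70), and 6 higher and 0 lower in batch 2 against saline. The GM-CSF receptor chains Csf2rb and Csf2ra rose from 28.6 to 119 CPM (log2 change 2.05, edgeR adjusted p 5.87e-05) and from 17.4 to 53.8 CPM (1.63, adjusted p 2.65e-06), and the lipid exporter Abca1 rose by 0.63 (0.00286). Abcg1, another lipid exporter, was at 81.9 CPM in saline and 96.6 CPM in batch 1 bleomycin (0.24, edgeR adjusted p 0.0582, not called). In batch 2 it was at 104 CPM and was called higher than saline (0.34, adjusted p 0.0112). Csf2 itself was low and fell from 1.68 to 0.66 CPM in batch 1 (-1.34, adjusted p 0.0432), whereas in batch 2 it was at 1.81 CPM (0.10, adjusted p 0.902). Over the same groups the 10 macrophage markers summed to 1533 to 1910 CPM in saline. Their sums were 2138 to 2488 CPM with bleomycin in batch 1 and 2654 to 3122 CPM in batch 2 bleomycin. Most of each sum was Lyz2, at 1434, 1463 and 2112 CPM on average in the same order, so the sums are not read as a level of macrophages. Lyz2 was not called in batch 1 (0.03, edgeR adjusted p 0.888), where 9 of the 10 markers were called higher. Between the bleomycin batches the median log2 change of the 10 was -0.12, and 0 were called. Lyz2 differed there by 0.53 (edgeR adjusted p 0.0535). The part of macrophages in the rises of the clearance genes was not tested.

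Among other collectins and collectin receptors, 4 of 8 tested genes were called higher and 1, Mbl1, lower in batch 1 (median 0.60). In batch 2 against saline, 4 were higher and 1, Cd93, was lower. Mbl2 and Colec10 were too low to test. The receptor Lrp1 rose by 0.93 (edgeR adjusted p 0.00299) and its partner calreticulin, Calr, by 1.09 (0.00014). Cd93, once described as a receptor for C1q and collectins and abundant in endothelium, was at 427 CPM in saline and 374 CPM in batch 1 (-0.19, adjusted p 0.331). At 322 CPM in batch 2, it was called lower than saline (-0.41, adjusted p 0.0393).

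Of 15 other markers of type 2 cells, 4 were called lower in batch 1 (median -0.67), namely Lgi3, S100g, Acoxl and Sfta2, and in batch 2 against saline 2 were lower and 1 was higher (median -0.14). Sfta2, a small secreted protein of type 2 and airway cells, fell by 1.57 in batch 1 (edgeR adjusted p 0.000186) and by 1.23 in batch 2 (0.00158). The chemokine Cxcl15, at 400 CPM in saline, was at 427 and 468 CPM in the bleomycin batches and was not called. Chil1 was at 180, 117 and 213 CPM and Hc at 276, 144 and 250 CPM in saline, batch 1 and batch 2, again without a call. The summed level of the 15 was 1421 to 1821 CPM in saline, 719 to 1803 CPM in batch 1 and 973 to 2135 CPM in batch 2.

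Markers shared by all epithelium summed to 427 to 503 CPM in saline, 324 to 396 CPM with bleomycin in batch 1 and 362 to 567 CPM in batch 2 bleomycin over 8 genes. Cdh1, the epithelial cadherin, fell by 0.33 in batch 1 (edgeR adjusted p 0.0337) and was at saline level in batch 2 (-0.01, adjusted p 0.938). Cldn3, a tight junction claudin, was at 34.6, 28.1 and 40.9 CPM in saline, batch 1 and batch 2 and was not called. Epcam and the protease Prss8 were higher in batch 2 than in batch 1 bleomycin, by 0.53 (adjusted p 0.047) and 0.75 (0.023). Against saline, Prss8 was called lower in batch 1 (-1.19, edgeR adjusted p 3.6e-05) and in batch 2 (-0.44, 0.0393). Epcam was not called in batch 1 (0.08, 0.665) and was called higher than saline in batch 2 (0.60, 0.00152). Of the 8 markers, 3 were called lower and 0 higher in batch 1. In batch 2 against saline, 1 was lower and 1 higher. How far the amount of epithelium in each section bears on the surfactant values was not tested.

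Markers of other cell types also differed from saline, and every marker in these lists had counts in all 13 libraries. The 10 fibroblast and matrix markers summed to 1935 to 2366 CPM in saline, 6142 to 21496 CPM with bleomycin in batch 1 and 8649 to 21379 CPM in batch 2, with 8 of 10 called higher in each against saline. In batch 1, 7 of 10 type 1 cell markers, 4 of 9 club and goblet cell markers, 7 of 8 ciliated cell markers and 5 of 8 endothelial markers were called lower. Of the endothelial markers, 1 was called higher (Vwf, named after its values were seen). Higher calls were also made for 9 of 10 macrophage, 8 of 10 dendritic cell and 6 of 8 lymphocyte markers, for 1 of 7 blood and heart markers and for 7 of 10 markers of the transitional epithelium that type 2 cells form after damage. Club and goblet markers summed to 7828 to 14549 CPM in saline, 3300 to 4705 CPM in batch 1 and 3090 to 8346 CPM in batch 2. Their sum was thus lower in batch 1 without overlap. Most of it was Scgb1a1, at 7713, 2211 and 3212 CPM on average in the same order, and 5 of the 9 markers were not called in batch 1. The part of these shifts in the CPM of the surfactant genes was not tested. Club cells also make SP-A, SP-B and SP-D, and how much of those transcripts came from them was not tested.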

How the data were processed

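The authors deposited raw counts per gene symbol, as whole numbers for each of the 13 libraries, without normalization. Libraries were made with a SMARTer stranded total RNA kit (Pico input) from 8 ng of RNA, per the labels. The submitters' processing notes name cutadapt 4.4, STAR 2.7.10b, featureCounts 2.0.3, DESeq2 1.42.1 and genome build mm39. What each tool did, whether strand or molecular identifiers were used and which annotation was counted is not given in the sources used here. Among counts of 1 to 10 in a library, 78.4% to 86.1% were even, so a count may not be an independent molecule. A normalized signal per gene was deposited by the authors as well (counts divided by a size factor per library, 29723 rows), which was used for an alternative only.

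Counts were filtered with filterByExpr over the 3 groups, scaled with TMM factors and tested with robust quasi-likelihood fits (glmQLFit, glmQLFTest) in edgeR 4.0.16 under R 4.3.3, with 1 mean for each of the 3 groups over all 13 libraries and Benjamini-Hochberg adjustment over the 20468 tested genes. The biological coefficient of variation was 0.306. Levels are CPM on TMM-scaled totals, ± SD over libraries. Correlations used log2 CPM with a prior count of 2. Ratios are of raw counts within a library. The fit was tested on simulated data. Alternatives were other scalings, no filter, DESeq2 1.42.0, limma-voom (limma 3.58.1), the normalized table, each library left out, and other handling of batch and of bleomycin replicate 8. No pair of libraries within a group was a duplicate (chi-square over degrees of freedom from 10.1 to 267).

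The surfactant genes and all lists were chosen with earlier results of these data known. The text names all 9 surfactant genes, of each pathway list the 3 most abundant tested genes and the called riser and faller of lowest p in batch 1, the 10 genes most like the mean of the 9, Col1a1 and Fn1. Lists of other cell types are given by counts and summed levels. Gene lengths and overlaps came from GENCODE M21 and promoters from RefSeq (GRCm38.p6), which matched 6 of the 9 genes by symbol. That build differs from the counts' mm39.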

Additional observations from a re-analysis of the deposited data

Results flagged for a closer look

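None of the 9 surfactant genes had a library that stood apart within its group. Among the other values, single libraries stood apart by Dixon's criterion, which flags about 1 in 20 groups by chance. These were the highest saline log2 ratios of Sftpc to Sftpb (1.941) and of Sftpc to Slc34a2 (2.10), both in saline replicate 2. In saline the highest Sfta2 level (34.56 CPM) also stood apart. In batch 1 bleomycin they were the highest 2610028H24Rik (24.43 CPM), the highest Csf2 (1.417 CPM) and the lowest Cdh1 (192.3 CPM). In batch 2 bleomycin they were the lowest Clstn1 (148.6 CPM), the highest Csf2rb (127.2 CPM), the lowest Cd93 (297.9 CPM) and the highest Fn1 (8078 CPM, replicate 1). The epithelial genes Epcam and Prss8 were higher in batch 2 than in batch 1 bleomycin, by 0.5261 and 0.7535 on the log2 scale, each with an edgeR adjusted p under 0.05. Prss8 was called lower than saline in both batches. Batch 2 has no saline library, so whether the effect of bleomycin differed between batches could not be tested.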

How the results depend on the processing

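Of the 9 surfactant genes, the 4 called in batch 1 became 2 with no filter on low counts (Sftpb and Sftpc), 1 without a batch term (Slc34a2) and 0 with bleomycin replicate 8 counted as saline, where all called genes dropped from 6319 to 645. With 1 library left out they were 3 to 6 in batch 1, 0 to 4 between bleomycin batches (4 without bleomycin replicate 1, 1 without replicate 5) and 1 to 2 in batch 2 against saline. Lamp3 was also called in batch 1 by DESeq2 (adjusted p 0.0256) and limma-voom (0.0264). Between bleomycin batches DESeq2 called 2 surfactant genes (Sftpb 0.023, Sftpd 0.0263); genes called there went from 343 to 704 with DESeq2, 102 with limma-voom and 148 to 1093 with 1 library left out (1093 without replicate 8). In batch 2 against saline 1 surfactant gene, Sftpd, remained of 2 under RLE size factors, library totals, DESeq2, limma-voom, the normalized table, replicate 8 counted as saline (945 of 5911 genes) and numbers 1 to 4 without a block. Signs turned for uncalled changes: Lpcat1 in batch 2 (-0.009 by library totals, -0.092 to 0.231 with 1 library left out), Napsa in batch 1 (-0.013 in the normalized table, -0.063 to 0.128), Sftpb in batch 2 (0.059 with replicate 8 as saline, -0.248 to 0.119) and Abca3 in batch 2 (-0.043 to 0.320). The cause of these changes was not tested. Replicate numbers 1 to 4 are shared by batch 2 bleomycin and saline but do not pair the libraries (correlations of -0.131, -0.347, -0.102 and -0.124); with the replicate block 2 surfactant genes were called, Sftpd 0.671 and Napsa 0.408, with 4641 genes in all beside 5633 without the block. By library totals the median of all genes was -0.179 between bleomycin batches and -0.117 in batch 2 against saline. The share of called genes that were higher was 54.2% in batch 2 against saline, 43.6% by library totals and 30.8% with replicate 8 as saline. Between bleomycin batches it was 32.6%, beside 19.7% by library totals, 22.6% with no filter and 72.6% with limma-voom. Leaving out ribosomal and mitochondrial genes, chosen after seeing the data, changed no call of a surfactant gene. Batch 2's lower depth limits the precision of its low genes.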
